A study of Homo sapiens with 6 samples.

Results

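The 40 genes described here encode factors that assemble the large (60S) ribosomal subunit in the nucleolus and nucleus of human cells. They were chosen by symbol, from a list of such factors. All 40 were among the 59251 gene symbols of the deposited expected count table, and all 40 were among the 14808 genes with enough reads to be tested. The study sequenced RNA of HCT116, a human colorectal carcinoma cell line, in 2 groups. The MUT group (3 libraries) was homozygous for the N106S substitution in eIF6, introduced by CRISPR/Cas9 editing. The WT group (3 libraries) carried the label Wt, for wild type. Both groups share the HCT116 background and growth medium, and cells were harvested before they were confluent. The labels speak of mutant clones without saying which clone gave which library, and they do not tell separate cultures from repeat libraries. The p-values therefore measure the spread between these libraries, which may be technical, and a difference between MUT and WT cannot be told apart from a difference between clones.

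The large subunit starts as a long precursor RNA in the nucleolus, onto which ribosomal proteins and assembly factors load in waves. Scaffold proteins and helicases fold the early particle, the PeBoW complex prepares the removal of the second internal spacer, and a docking pair brings in the 5S ribonucleoprotein. GTPases mark the nuclear stages, AAA ATPases pull factors off again, and place-holder proteins keep sites for ribosomal proteins that join later. The protein eIF6 binds the particle in the nucleus, travels with it to the cytoplasm and keeps it from joining the small subunit until SBDS and EFL1 drive its release.

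Levels are given as CPM, counts scaled to library size and TMM, a factor per library that sets the typical gene equal between libraries. Total counts ran from 53986494 to 80146608 in MUT and from 63951768 to 87656970 in WT. Without 7SL, 7SK, RPPH1 and RMRP RNA, abundant noncoding RNAs that filled most of each library, 11094084 to 21984081 counts remained in MUT and 10252501 to 17798865 in WT. The 40 factors together drew 21261, 32492 and 17771 counts in MUT replicates 1, 2 and 3, and 19359, 22036 and 12391 in WT. The smallest count of any factor in a library was 52 (NVL, WT replicate 3) and the largest 3320 (RSL24D1, MUT replicate 2). Markers of the epithelial lineage were summed at 449 to 504 CPM in MUT and 423 to 460 CPM in WT. Of these 6 markers, 5 were above 1 CPM in every library, and CDH1 had 14 to 31 counts in MUT and 35 to 54 in WT. The keratins KRT8, KRT18 and KRT19 made up most of the sum. CLDN4 was called lower in MUT (log2 fold change -0.94, edgeR adjusted p = 0.0284), and EPCAM was lower in every MUT library without being called (-0.34, edgeR adjusted p = 0.139). KRT8 was higher in every MUT library without being called (0.32, edgeR adjusted p = 0.255). KRT18 and KRT19 stood at 0.05 and 0.11, with overlapping groups. Immune, fibroblast and endothelial markers were each summed below 1.5 CPM in every library, with PTPRC, CD3E and CDH5 at 0 counts in all 6.

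One library stood apart for these genes. Rows of ribosomal RNA (45S, 28S, 18S and 5.8S) took 0.0891%, 3.91% and 0.139% of the counts in MUT replicates 1, 2 and 3, against 1.16%, 0.118% and 0.234% in WT. MUT replicate 2 held the highest CPM of the 3 MUT libraries for 28 of the 40 factors (70%), against 37.5% of all tested genes. It held the highest CPM of all 6 libraries for 23 factors (57.5%), against 20.9% of all tested genes. The median factor lay 0.26 higher on the log2 scale in MUT replicate 2 than in the other MUT libraries, where the median of all genes lay at -0.0049. The results are therefore given with and without that library. The part of ribosomal RNA content in them was not tested.

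Among the 40 factors, NOC2L passed the test across all genes. It was higher in MUT, and no factor was called lower. Of all tested genes, 1.91% had an edgeR adjusted p below 0.05, with 0.986% called higher and 0.925% called lower in MUT, so 1 call among 40 genes is near the background. An unadjusted p below 0.05 was reached by 10 factors, against 19.6% of all tested genes. The MUT and WT libraries did not overlap for 11 factors, against 26.1% of all tested genes. Of these, 9 were higher in MUT, against 12.8% of all tested genes, and 2 were lower in MUT, against 13.4%. The fit without MUT replicate 2 called 2.9% of all tested genes and 1 factor (NOC2L). The 4 libraries lowest in ribosomal RNA called 2.66% of all tested genes and 3 factors (NOC2L and PPAN higher, NLE1 lower), and DESeq2's Wald test on 6 libraries called 5.16% and 2 factors (NOC2L higher, NLE1 lower). Scaling by library size alone called 0.729% of all tested genes and 0 factors. Scaling by library size after removal of the 4 abundant noncoding RNAs called 6.07% and 8 factors, all higher (NOC2L, CEBPZ, RRP15, PES1, RPF2, GTPBP4, NVL and SDAD1), with the median of all genes then at 0.21 on the log2 scale.

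The factors as a list leaned upward by a small amount, described here without a test. A log2 fold change (MUT over WT) above 0 was found for 30 of 40 factors (75%), against 48.7% of all tested genes. The median log2 fold change was 0.16 for the factors and -0.01 for all tested genes, and single values ran from -0.55 for NLE1 to 0.78 for NOC2L. Without MUT replicate 2, 25 factors lay above 0 and the median was 0.07, against -0.0013 for all genes. The summed level of the 40 factors was 283, 334 and 298 CPM in MUT replicates 1, 2 and 3, against 280, 294 and 287 CPM in WT. MUT replicate 1 lay inside the WT range and MUT replicate 2 stood highest. By library size alone 39 factors lay above 0, with a median of 0.75, but the median of all genes then lay at 0.54. Each value below is from RNA of many cells, so the share of cells that express a gene and its level per cell cannot be told apart.

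**Figure D1:**
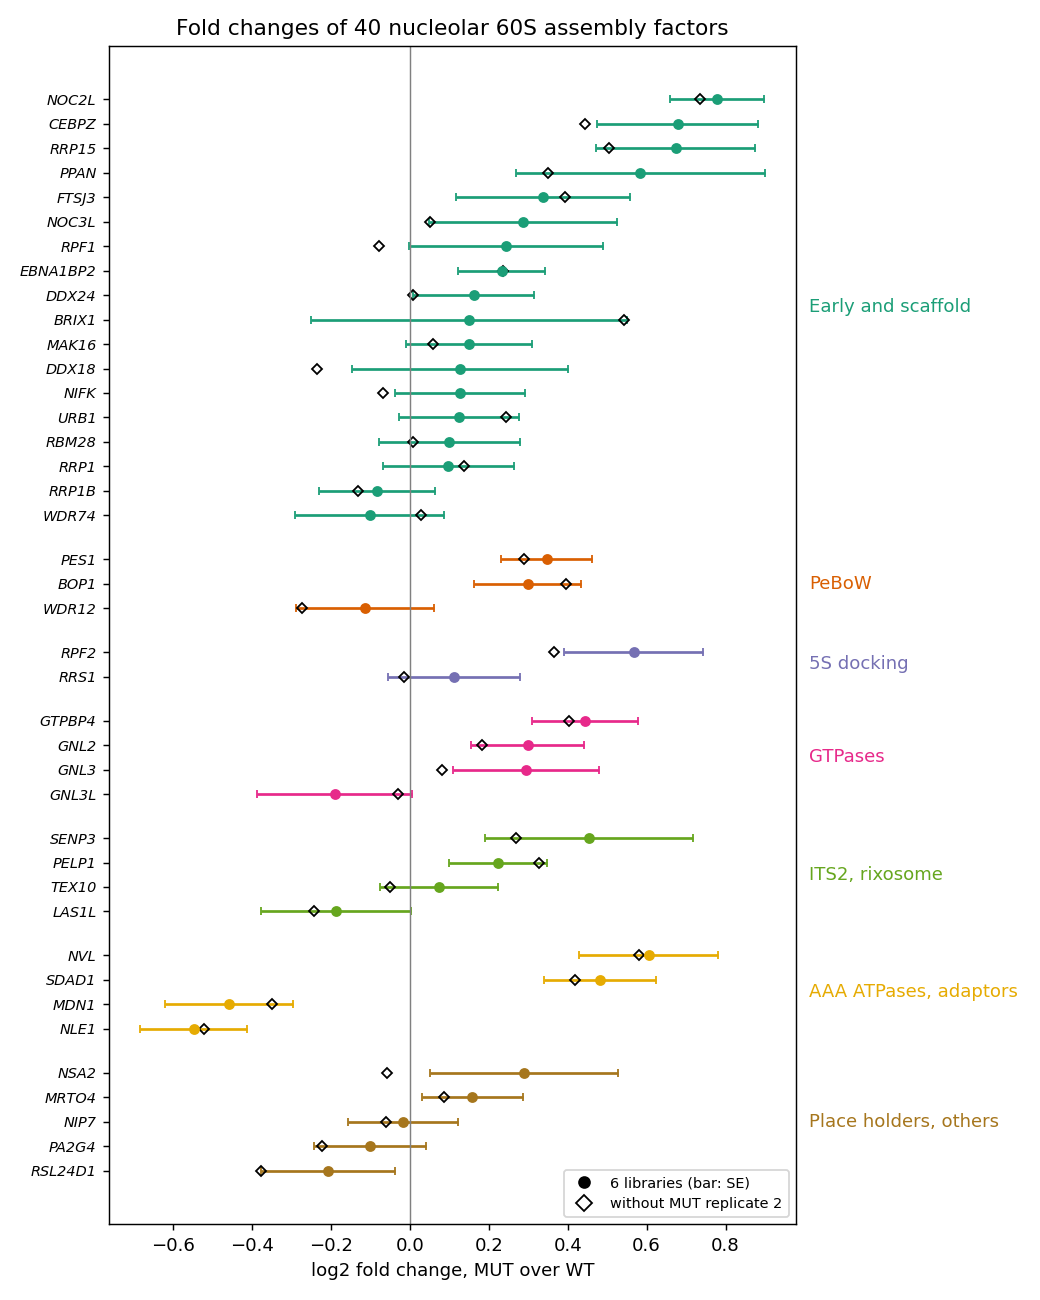
Log2 fold change, MUT over WT, of the 40 factors, sorted within 7 role groups. Filled points are the fit on 6 libraries with bars of 1 SE, open diamonds the fit without MUT replicate 2. NOC2L stands at 0.78 and NLE1 at -0.55, and the 4 AAA ATPases and adaptors split into 2 above and 2 below 0.

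**Figure D2:**
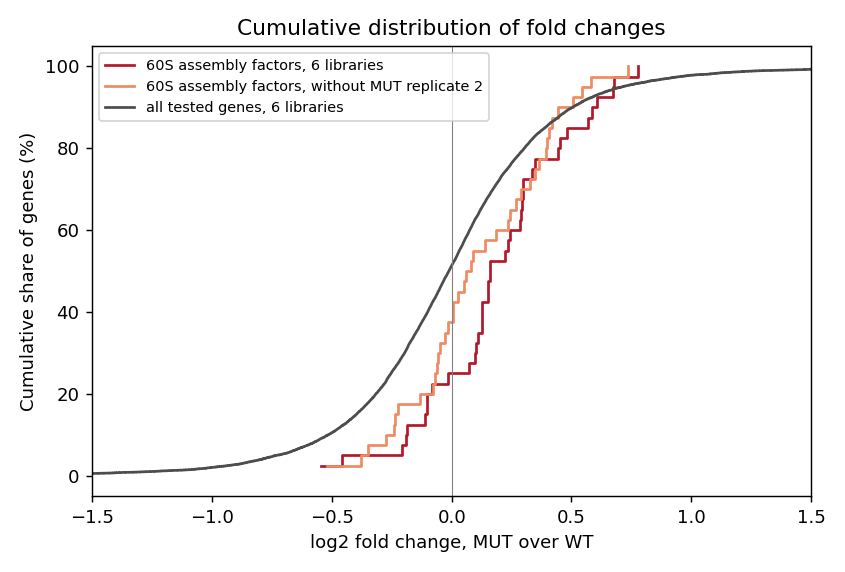
Cumulative share of genes (%) against log2 fold change, MUT over WT, for the 40 factors in 6 libraries, the same factors without MUT replicate 2, and all tested genes in 6 libraries. The curve of the factors lies to the right of that of all genes around its middle, with medians of 0.16 and -0.01, and the curve without MUT replicate 2 crosses its middle at 0.07.

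The early nucleolar and scaffold proteins formed the largest role group. Of these 18 factors, 16 had a log2 fold change above 0, against 48.7% of all tested genes, with a median of 0.16. Higher levels in every MUT library than in any WT library were found for 4 (NOC2L, RRP15, CEBPZ and EBNA1BP2). The share of all tested genes with such levels was 12.8%. NOC2L (chromosome 1, 944203 to 959256, GRCh38) is the counterpart of yeast Noc2, which pairs first with Noc1 and then with Noc3 on the growing particle. In human cells NOC2L is also known as a protein that keeps histones from being acetylated. NOC2L had 5.22, 6.31 and 6.0 CPM in MUT replicates 1, 2 and 3, against 3.23, 3.63 and 3.36 CPM in WT. The lowest MUT library lay above the highest WT library. The means were 5.84 ± 0.56 CPM in MUT and 3.41 ± 0.21 CPM in WT (SD, n = 3 each), a log2 fold change of 0.78 (SE 0.12, edgeR adjusted p = 0.0193). Without MUT replicate 2 the value was 0.74 and still passed (edgeR adjusted p = 0.0256). Leaving out any one of the other 5 libraries gave 0.76 to 0.86 with edgeR adjusted p from 0.0578 to 0.105, past the threshold in none. NOC2L shares 13.6% of the 50-base stretches of its transcripts with other genes, among them NOC2LP1 and NOC2LP2. The largest part, 5.85%, is shared with SAMD11. NOC2L shares 378 exon bases with SAMD11 on the opposite strand, and whether the counting used strand is not stated. SAMD11 was at 1.04, 0.840 and 1.32 CPM in MUT and 0.724, 0.922 and 1.203 CPM in WT, with a log2 fold change of 0.18.

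The counterparts of yeast Noc1 and Noc3 were measured beside it. CEBPZ (Noc1 in yeast) had 2.78, 4.38 and 2.83 CPM in MUT, against 1.85, 2.35 and 2.06 CPM in WT. The groups did not overlap and MUT replicate 2 was far above the other MUT libraries. CEBPZ had a log2 fold change of 0.68 (SE 0.20, edgeR adjusted p = 0.118), and 0.44 without MUT replicate 2. NOC3L (Noc3 in yeast) had 1.11, 2.06 and 1.56 CPM in MUT and 1.33, 1.32 and 1.23 CPM in WT. The NOC3L groups overlapped, and its log2 fold change was 0.29 with 6 libraries and 0.05 without MUT replicate 2.

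RRP15, an early particle protein named after its part in yeast ribosomal RNA processing, had 3.24, 4.21 and 2.78 CPM in MUT, against 2.42, 2.32 and 1.64 CPM in WT. Its groups did not overlap. RRP15 stood at a log2 fold change of 0.67 (SE 0.20, edgeR adjusted p = 0.117), and 0.50 without MUT replicate 2. EBNA1BP2, which in yeast binds the Brix-domain protein Brx1, had 19.4, 20.9 and 20.9 CPM in MUT, against 16.4, 17.6 and 18.03 CPM in WT. These groups were close together but did not overlap, at a log2 fold change of 0.23 with 6 libraries and 0.24 without MUT replicate 2.

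BRIX1, the human counterpart of Brx1, had the largest SE of the 40. It had 11.3, 3.64 and 11.04 CPM in MUT replicates 1, 2 and 3, against 5.01, 10.1 and 8.17 CPM in WT. Its lowest library in each group was the one with the most ribosomal RNA rows. MUT replicate 2 lay at -1.56 on the log2 scale relative to the other MUT libraries, and WT replicate 1 at -0.83 relative to the other WT libraries. The BRIX1 log2 fold change was 0.15 (SE 0.40) with 6 libraries and 0.54 without MUT replicate 2, and it was 0.30 in the 4 libraries without those 2 (edgeR adjusted p = 0.326).

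PPAN, the counterpart of yeast Ssf1, also depended on the libraries used. It had 3.50, 5.05 and 2.97 CPM in MUT, against 3.95, 1.74 and 1.99 CPM in WT, so WT replicate 1 lay inside the MUT range. The log2 fold change was 0.58 with 6 libraries (edgeR adjusted p = 0.352). It was 0.35 without MUT replicate 2 (edgeR adjusted p = 0.572) and 1.07 without WT replicate 1 (edgeR adjusted p = 0.146). In the 4 libraries lowest in ribosomal RNA, which leave out both, it was 0.83 (edgeR adjusted p = 0.0426). PPAN shares 52.7% of the 50-base stretches of its transcripts with the read-through gene PPAN-P2RY11, which drew 574, 49 and 383 counts in MUT and 142, 375 and 333 in WT. With the counts of both genes added, the level was 11.1, 5.47 and 9.38 CPM in MUT and 6.01, 6.74 and 9.69 CPM in WT. All WT values of that sum lay inside the MUT range, so the value of PPAN alone is uncertain.

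The remaining 11 early factors had overlapping groups. FTSJ3, a methyltransferase of precursor RNA, stood at 0.34 on the log2 scale, RPF1, of the Brix-domain family, at 0.24, and the helicase DDX24 at 0.16. MAK16 was at 0.15, URB1, a large scaffold protein, at 0.13, NIFK, known for its binding to the proliferation protein Ki-67, at 0.13, and the helicase DDX18 at 0.13. The RNA-binding protein RBM28 was at 0.10, RRP1 at 0.10, its paralog RRP1B at -0.08 and WDR74 at -0.10. The signs of RPF1, NIFK, DDX18 and WDR74 turned without MUT replicate 2, at -0.08, -0.07, -0.24 and 0.03. DDX18 and WDR74 also turned without WT replicate 3, at -0.03 and 0.05. WDR74, the counterpart of yeast Nsa1, had 33.3, 31.6 and 47.1 CPM in MUT and 38.5, 34.1 and 47.5 CPM in WT. Its exons overlap 191 bases of RNU2-2P, a copy of the U2 small nuclear RNA with 38186 to 46747 counts in MUT and 36947 to 50193 in WT, so the level of WDR74 is uncertain.

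**Figure D3:**
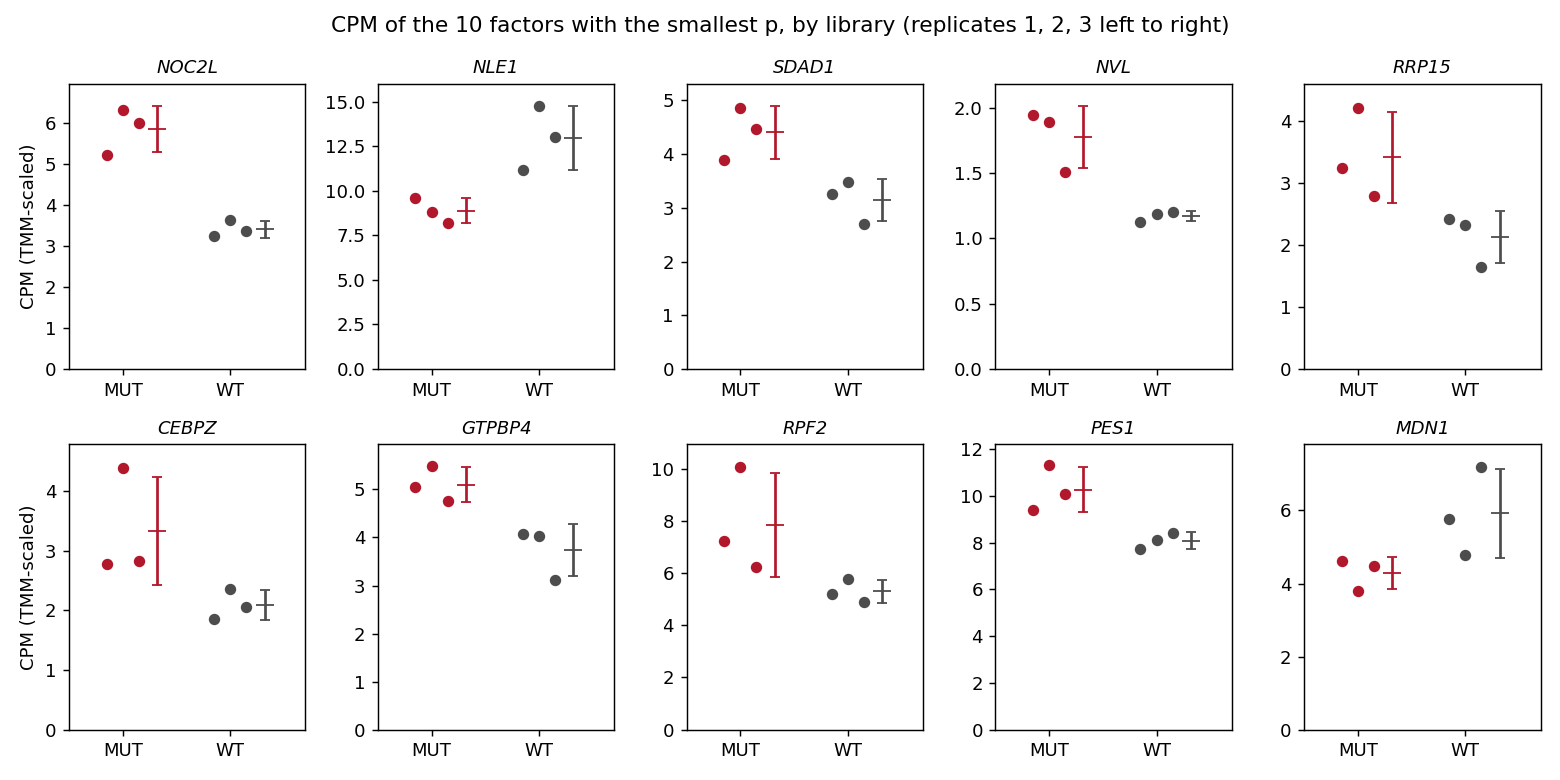
CPM (TMM-scaled) in each library for the 10 factors with the smallest p, MUT left of WT, replicates 1 to 3 from left to right, with mean and SD beside them. The groups do not overlap in any of the 10 panels, which is largely set by choosing the panels by p from the same libraries. Such groups were found for 26.1% of all tested genes. NLE1 and MDN1 are lower in MUT and the other 8 are higher.

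The 4 AAA ATPases and adaptors were the role group in which the groups of libraries separated for each member, 2 higher and 2 lower in MUT. This depends on which genes were put in the group, and the lists were chosen with earlier results of these data known. All 4 had an unadjusted p below 0.05 and none passed after adjustment over all genes. Of all tested genes, 26.1% had groups that did not overlap and 19.6% had such a p. MDN1, a giant AAA ATPase (Rea1 in yeast), and its substrate NLE1 (Rsa4 in yeast, Notchless in flies) work as a pair that remodels the particle before nuclear export. WDR12, whose yeast counterpart is removed by Rea1, was counted with PeBoW instead, and its groups overlapped. NLE1 (chromosome 17, 35128730 to 35142303, GRCh38) had 9.60, 8.80 and 8.21 CPM in MUT, against 11.1, 14.8 and 13.0 CPM in WT. Every MUT library lay below every WT library, at means of 8.87 ± 0.70 CPM in MUT and 13.0 ± 1.81 CPM in WT (SD, n = 3 each). The log2 fold change was -0.55 (SE 0.14, edgeR adjusted p = 0.0744), and -0.52 without MUT replicate 2. It passed in the 4 libraries lowest in ribosomal RNA (-0.62, edgeR adjusted p = 0.0424) and in DESeq2's Wald test (-0.53, adjusted p = 0.0257). By library size alone it was -0.03, against the median of 0.54 for all genes. NLE1 shares 688 exon bases with FNDC8 on the opposite strand. MDN1 (chromosome 6, 89642498 to 89819794) had 4.62, 3.80 and 4.47 CPM in MUT, against 5.78, 4.78 and 7.20 CPM in WT. The highest MUT library was just below the lowest WT library. The log2 fold change of MDN1 was -0.46 with 6 libraries and -0.35 without MUT replicate 2, and by library size alone it was 0.10.

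NVL and SDAD1 went the other way. NVL (chromosome 1, 224227345 to 224330172) is the counterpart of the yeast AAA ATPase Rix7, which releases Nsa1 from an earlier particle. It had 1.94, 1.89 and 1.51 CPM in MUT, against 1.13, 1.19 and 1.203 CPM in WT. The groups did not overlap, and the log2 fold change was 0.61 (SE 0.18, edgeR adjusted p = 0.111) and 0.58 without MUT replicate 2. SDAD1 (chromosome 4, 75949915 to 75990945), the counterpart of yeast Sda1, which is found on nuclear particles together with Rea1, had 3.89, 4.87 and 4.47 CPM in MUT, against 3.26, 3.47 and 2.71 CPM in WT. Its groups did not overlap either, at a log2 fold change of 0.48 (SE 0.14, edgeR adjusted p = 0.111) and 0.42 without MUT replicate 2. The summed level of the 4 genes was 20.1, 19.4 and 18.7 CPM in MUT, against 21.3, 24.2 and 24.1 CPM in WT.

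The PeBoW complex joins PES1, BOP1 and WDR12, and none of the 3 was called. PES1, the BRCT-domain subunit, had 9.40, 11.3 and 10.1 CPM in MUT, against 7.70, 8.11 and 8.42 CPM in WT. The groups did not overlap, at a log2 fold change of 0.35 with 6 libraries and 0.29 without MUT replicate 2. BOP1, the subunit that bridges the other two, had 16.0, 13.6 and 16.1 CPM in MUT and 11.3, 11.6 and 14.2 CPM in WT. One WT library lay inside the MUT range, and the log2 fold change was 0.30 (edgeR adjusted p = 0.267), and 0.40 without MUT replicate 2. WDR12, whose yeast counterpart is removed by Rea1, had 3.04, 4.42 and 3.37 CPM in MUT and 3.87, 4.52 and 3.31 CPM in WT. The WDR12 groups overlapped widely, at a log2 fold change of -0.11, at -0.27 without MUT replicate 2 and at 0.46 by library size alone.

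RPF2 and RRS1 dock the 5S ribonucleoprotein on the particle. RPF2 (chromosome 6, 110982038 to 111028263) had 7.24, 10.1 and 6.23 CPM in MUT, against 5.21, 5.77 and 4.91 CPM in WT. Its groups did not overlap, and MUT replicate 2 was again the highest library. RPF2 had a log2 fold change of 0.57 (SE 0.18, edgeR adjusted p = 0.127), and 0.36 without MUT replicate 2. RRS1 had 3.41, 5.28 and 4.66 CPM in MUT and 4.53, 3.95 and 3.86 CPM in WT. Here the groups overlapped, at a log2 fold change of 0.11 with 6 libraries and -0.02 without MUT replicate 2. The 2 ribosomal proteins that the pair docks, RPL5 and RPL11, stood at -0.07 and -0.29 and were not called.

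Of the 4 GTPases, 3 had a log2 fold change above 0 and 1 had groups that did not overlap. Over all tested genes these shares were 48.7% and 26.1%. GTPBP4 (chromosome 10, 988434 to 1019932), the counterpart of yeast Nog1, whose tail reaches into the exit tunnel of the particle, had 5.06, 5.48 and 4.76 CPM in MUT, against 4.07, 4.02 and 3.12 CPM in WT. The GTPBP4 log2 fold change was 0.44 (SE 0.13, edgeR adjusted p = 0.119), and 0.40 without MUT replicate 2, so this value moved little with that library. GTPBP4 shares 20.4% of its 50-base stretches with other genes. GNL2, the counterpart of yeast Nog2, had 4.49, 5.597 and 4.22 CPM in MUT and 4.29, 3.85 and 3.49 CPM in WT. GNL3, known as nucleostemin, had 12.2, 18.9 and 12.7 CPM in MUT and 11.4, 13.5 and 10.7 CPM in WT. Both overlapped between groups, at 0.30 and 0.29 on the log2 scale, and without MUT replicate 2 they stood at 0.18 and 0.08. GNL3L, a paralog of GNL3, had 1.93, 1.25 and 1.49 CPM in MUT and 1.90, 1.71 and 1.71 CPM in WT. Its log2 fold change was -0.19, with -0.03 without MUT replicate 2 and 0.30 by library size alone.

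The factors of the second internal spacer and the rixosome showed no separation between groups. This group holds LAS1L, the endonuclease that cuts the spacer, TEX10 and PELP1, scaffold subunits of the rixosome, and SENP3, a protease that removes SUMO from PELP1. None of the 4 had an unadjusted p below 0.05. PELP1 stood at 0.22 on the log2 scale, TEX10 at 0.07 and LAS1L at -0.19. Without MUT replicate 2, TEX10 turned to -0.05 and LAS1L stood at -0.24. By library size alone LAS1L was at 0.35. SENP3 had 2.32, 2.78 and 1.53 CPM in MUT and 2.13, 1.35 and 1.37 CPM in WT. Its log2 fold change was 0.45 (edgeR adjusted p = 0.389), and 0.27 without MUT replicate 2. SENP3 shares 37.2% of its 50-base stretches with the read-through gene SENP3-EIF4A1, which drew 1141, 7602 and 1071 counts in MUT and 977, 976 and 500 in WT. The read-through gene was thus far higher in MUT replicate 2 than in any other library, and the level of SENP3 is uncertain for that reason.

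The place holders and other travelling factors had a median log2 fold change of -0.02, with 2 of 5 above 0, and the groups overlapped for all 5. MRTO4, which holds the site of the stalk protein P0, had 10.6, 12.8 and 10.9 CPM in MUT and 9.37, 11.2 and 10.2 CPM in WT, a log2 fold change of 0.16. RSL24D1, which holds the site of RPL24, had 24.9, 34.1 and 23.2 CPM in MUT and 30.8, 35.6 and 28.4 CPM in WT, at -0.21. For RSL24D1, MUT replicate 2 lay within the WT range and the other MUT libraries below it. Without MUT replicate 2 the RSL24D1 value was -0.38 (edgeR adjusted p = 0.159), and by library size alone it was 0.37. PA2G4, also called EBP1, which binds at the tunnel exit, stood at -0.10, at -0.22 without MUT replicate 2 and at 0.49 by library size alone. NIP7 stood at -0.02 and turned sign under several scalings. NSA2 was at 0.29 with 6 libraries and -0.06 without MUT replicate 2, and it shares 62.5% of its 50-base stretches with other genes, mostly with FAM169A on the opposite strand.

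The 40 factors were set beside a list of 30 other nucleolar or nuclear assembly genes, most of them known from the large subunit. The list also holds MPHOSPH10, of the small subunit processome, and NUFIP1, ZNHIT3 and ZNHIT6, which assemble small nucleolar ribonucleoproteins. Of these, 22 had a log2 fold change above 0, the median was 0.15 and 0 were called in edgeR's test, with 11 at an unadjusted p below 0.05, against 19.6% of all tested genes. The groups did not overlap for 13 of the 30, against 26.1% of all tested genes. Of these, 11 were higher in MUT, against 12.8%, and 2 were lower in MUT (NOP53 and NPM3), against 13.4%. NOP2, an RNA methyltransferase of the nucleolus, had 4.38, 4.49 and 4.56 CPM in MUT, against 3.37, 3.19 and 2.99 CPM in WT, the smallest adjusted p of that list (log2 fold change 0.49, edgeR adjusted p = 0.0586). Of 11 late factors that act up to the cytoplasm, 5 lay above 0, with a median of -0.01. Only 1 was called, against 1.91% of all tested genes. That gene was SBDS, the release factor of eIF6, with 7.22, 8.27 and 7.09 CPM in MUT, against 5.34, 4.76 and 5.04 CPM in WT (log2 fold change 0.58, edgeR adjusted p = 0.0419). The dependence of the SBDS call on single libraries was not examined. EIF6 itself had 36.7, 30.7 and 35.7 CPM in MUT, against 43.3, 47.9 and 47.4 CPM in WT. EIF6 stood at -0.43 on the log2 scale (edgeR adjusted p = 0.110), and because the edit replaces an amino acid, the amount of transcript cannot check the genotype.

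Levels were compared between factors on the authors' FPKM scale, which divides by transcript length, as each factor's share of the summed FPKM of the 40. The 5 factors with the highest shares in WT (WDR74, RSL24D1, EBNA1BP2, PA2G4 and BOP1) together held 52.0% in MUT and 55.0% in WT. WDR74 had 15.8% ± 3.45 in MUT and 17.7% ± 2.94 in WT (SD, n = 3 each), with the caveat of its overlap with RNU2-2P. RSL24D1 had 10.4% ± 1.74 in MUT and 12.7% ± 1.35 in WT, and EBNA1BP2 had 11.2% ± 0.68 in MUT and 10.1% ± 0.32 in WT. In MUT the EBNA1BP2 libraries lay inside the range of the RSL24D1 libraries, while in WT the lowest RSL24D1 library (11.2%) was above the highest EBNA1BP2 library (10.3%). NLE1 had 2.29% ± 0.25 in MUT and 3.55% ± 0.38 in WT. It ranked 13th in MUT and 9th in WT. The AAA ATPases and adaptors together held 4.12% ± 0.38 in MUT and 5.26% ± 0.57 in WT, and the place holders 25.9% ± 3.30 in MUT and 28.9% ± 2.30 in WT. The early factors held 44.6% ± 3.55 in MUT and 43.3% ± 2.498 in WT, the PeBoW genes 10.3% ± 1.62 in MUT and 8.95% ± 1.07 in WT, and the GTPases 7.67% ± 1.08 in MUT and 6.70% ± 0.68 in WT. In each of these 5 groups except the AAA ATPases the ranges of MUT and WT libraries overlapped.

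**Figure D4:**
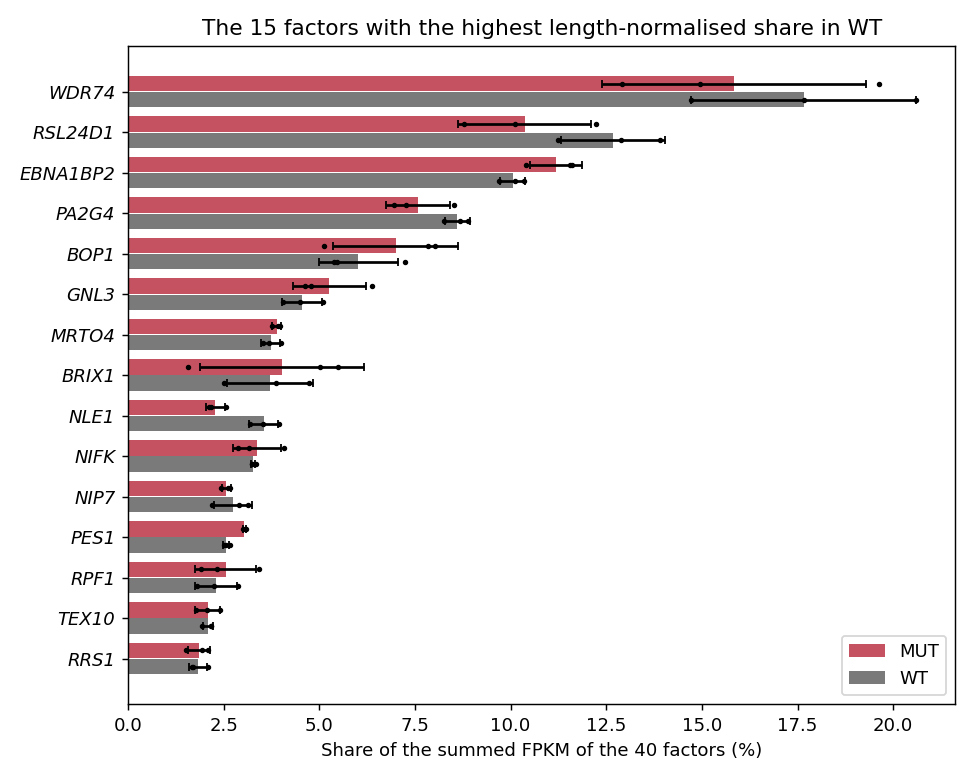
Share (%) of the summed FPKM of the 40 factors held by the 15 factors with the highest mean share in WT, MUT above WT. Bars are means, error bars 1 SD over 3 libraries and points single libraries. WDR74 leads in both groups, at 15.8% in MUT and 17.7% in WT, and NLE1 stands at 2.29% in MUT and 3.55% in WT.

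Ratios of FPKM within a library compared partners that work together, free of any scaling between libraries. They still depend on the transcript lengths that FPKM divides by. BOP1 over PES1 averaged 2.30 ± 0.51 in MUT and 2.34 ± 0.33 in WT (SD, n = 3 each), and WDR12 over PES1 averaged 0.102 ± 0.015 in MUT and 0.138 ± 0.024 in WT. RPF2 over RRS1 was 0.974, 0.872 and 0.613 in MUT, against 0.525, 0.668 and 0.579 in WT. NOC2L over NOC3L was 5.52, 3.47 and 4.75 in MUT, against 2.64, 3.24 and 3.54 in WT. In each of these ratios at least 1 MUT library lay inside the WT range. GNL3 over its paralog GNL3L was 14.2, 36.8 and 24.8 in MUT, against 12.3, 15.5 and 13.7 in WT, while RRP1 over its paralog RRP1B averaged 2.99 in MUT and 2.74 in WT. GNL2 over GNL3 averaged 0.271 in MUT and 0.272 in WT. NLE1 over MDN1 averaged 10.1 ± 5.32 in MUT and 6.73 ± 3.24 in WT. This ratio was 10.3 in WT replicate 1 and 4.0 in WT replicate 3. CPM gave no such gap, with NLE1 at 11.1 and 13.0 and MDN1 at 5.78 and 7.20 in those libraries. The higher mean ratio in MUT is therefore uncertain, and the cause of the gap was not tested. Over the 8 ratios, two-sided exact permutation p-values ran from 0.2 to 1, and 0.4 to 1 after Benjamini-Hochberg adjustment, where 3 against 3 libraries cannot go below 0.1. The transcripts of RRP1 and RRP1B, of GNL3 and GNL3L, and of GNL2 and GNL3 shared 0 stretches of 50 bases, so reads of at least that length without mismatches would not be split between these paralogs.

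The promoters of the factors held a feature that their choice had not used. The letters CACGTG, the palindromic E-box known as a binding sequence of MYC and its relatives, were searched in windows from 250 bases before to 50 bases after the transcript start (RefSeq, GRCh38.p14), and 34 of the 40 factors matched a window. At least 1 match was found for 11 of the 34 factors (32.4%), against 12.4% of 11021 tested genes and 8.77% of 27305 genes of all kinds. The 30 other nucleolar factors gave 8 of 25 (32%). In the 50 bases after the start alone, 8 of 34 factors (23.5%) held CACGTG, against 1.52% of tested genes and 4% of the other nucleolar factors. In the 250 bases before the start the share was 14.7% of the factors, against 11.03% of tested genes and 24% of the other nucleolar factors. The median GC content of the windows was 63.7% for the factors and 65% for tested genes. A match describes letters and is not a measured binding site. The plan named the whole window only, and the split at the start was added to it. The 8 stretches with CACGTG after the start are printed on the strand of the gene, 5′ to 3′, with CACGTG in capitals. They were picked for lying in those 50 bases, so their nearness to the start is set by that choice. Matches before the start, found for 5 factors (EBNA1BP2, MDN1, PELP1, SDAD1 and TEX10), are not printed. Positions count the first base of the transcript start used for that window as 1. For PES1, GNL3 and EBNA1BP2 that start lies inside the gene. Their outermost starts are at chr22:30607013, chr3:52685920 and chr1:43172570, so the match lies further from those.
GNL2 (position 4, chr1:37595917-37595946, minus strand): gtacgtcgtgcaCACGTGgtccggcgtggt
GNL3 (position 7, chr3:52686026-52686055, plus strand): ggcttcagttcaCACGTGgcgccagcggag
NLE1 (position 13, chr17:35142274-35142303, minus strand): ctctttctcctcCACGTGgggacgcaggat
PES1 (position 14, chr22:30591880-30591909, minus strand): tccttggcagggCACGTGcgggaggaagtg
MRTO4 (position 15, chr1:19251807-19251836, plus strand): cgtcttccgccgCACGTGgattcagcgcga
NOC3L (position 20, chr10:94362903-94362932, minus strand): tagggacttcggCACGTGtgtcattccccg
MDN1 (position 28, chr6:89819750-89819779, minus strand): cgtgtgctcaccCACGTGtggtgcccctct
EBNA1BP2 (position 43, chr1:43172241-43172260, minus strand, cut at the end of the window): gcgattcggtggCACGTGga

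These 8 genes did not share a direction. NLE1 and MDN1 were the 2 factors lower in every MUT library, at -0.55 and -0.46 on the log2 scale. PES1 (0.35), GNL2 (0.30), GNL3 (0.29), NOC3L (0.29), EBNA1BP2 (0.23) and MRTO4 (0.16) lay above 0. Among them, the groups of PES1 and EBNA1BP2 did not overlap. The share of all tested genes whose groups did not overlap was 26.1%, with 12.8% higher and 13.4% lower in MUT.

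NOC2L, the factor that passed the test, held no CACGTG in its window. The 250 bases before its start (chr1:959257-959506, minus strand, GRCh38.p14, GC 78.4%) are printed to set beside the stretches above, with the 2 copies of GGAAGT, letters known from binding sequences of the ETS family, in capitals.
NOC2L: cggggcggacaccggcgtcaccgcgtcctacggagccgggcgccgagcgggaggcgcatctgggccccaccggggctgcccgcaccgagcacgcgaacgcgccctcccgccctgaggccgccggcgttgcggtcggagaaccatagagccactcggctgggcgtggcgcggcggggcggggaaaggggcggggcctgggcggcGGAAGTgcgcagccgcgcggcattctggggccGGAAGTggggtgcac
GGAAGT was chosen after this window had been read. On either strand of the 250 bases before the start, it was found for 17 of 34 factors (50%), against 28.4% of tested genes.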

How the data were processed

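RNA-seq of 6 HCT116 libraries, 3 MUT and 3 WT, was analysed from 3 tables. The authors deposited expected counts per gene symbol, all whole numbers, so rounding changed none. The authors also deposited FPKM, normalised for depth and transcript length, and TPM, likewise normalised. Per the submitters' processing notes, which give no roles, the tools included STAR 2.5.2b, RSEM 1.2.28, DESeq2 1.42.0 and FastQC 0.12.1, and the build was hg38 (GRCh38). Strand use in counting is not given in the sources used here. Reads that fit several genes are shared out by RSEM-type estimators, which makes genes with common stretches uncertain.

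Counts were tested in R 4.3.3 with edgeR 4.0.16 (filterByExpr with a minimum count of 10, TMM, glmQLFit and glmQLFTest, no covariate), with Benjamini-Hochberg adjustment over all 14808 tested genes and a threshold of 0.05. Alternatives used DESeq2 1.42.0, limma 3.58.1 on the deposited TPM, other scalings and filters, a replicate block, and fewer libraries. FPKM served for levels between genes. Shared 50-base stretches and exon overlaps came from GENCODE 29 transcripts, coordinates and promoters from RefSeq.

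All 40 members are described, with full statistics for called members and the 8 smallest p-values. The members and lists were chosen with earlier results of these data known. Lists are described by counts and medians, with no test of the list. A planned comparison of protein sequences was not made. The ribosome profiling that the series mentions is not analysed here. Replicates of a group differed well beyond sampling noise (chi-square per degree of freedom 15.0 to 424), so each library counts once.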

Additional observations from a re-analysis of the deposited data

How the results depend on the processing

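With DESeq2's size factors, a replicate block, and a minimum of 1 CPM in 3 libraries, 1 factor (NOC2L) stayed called, among 1.92%, 2% and 4.66% of all genes, and 30, 30 and 31 factors lay above 0. NOC2L kept its direction in the 14 alternatives in which it was tested (it was not tested on TPM), at 0.70 to 1.34 with adjusted p from 0.000258 to 0.105. Without a low-count filter 5 factors were called higher and 1 lower, among 667 and 528 of all genes (4.07%), and with 1 CPM in 3 libraries all genes gave 266 higher and 196 lower. DESeq2's Wald test called 1 factor higher and 1 lower (NLE1), among 352 and 412 genes (5.16%). The 4 libraries lowest in ribosomal RNA gave 2 higher (NOC2L, PPAN) and 1 lower (NLE1), among 187 and 208 genes (2.66%). By library size alone 0 were called, among 95 higher and 13 lower, with a factor median of 0.75 against 0.54 for all genes. By library size without the abundant noncoding RNAs 8 were called higher, among 833 and 79 genes (6.07%), and the factor median was 0.39 against 0.21. Limma on log2(TPM + 1) tested 12 factors, 12 above 0 and 0 called, with a median of 0.45 against 0.36 and 15 and 6 genes called. On log2(TPM + 0.1) the 12 gave 12 above 0 and 0 called, a median of 0.64 against 0.49, and 5 and 5 genes.

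Leaving out 1 library at a time gave 0 to 1 factors called higher, 0 to 0 lower, 25 to 32 above 0 and a median of 0.07 to 0.26, with 12 to 234 of all genes higher and 15 to 208 lower. Only the fit without MUT replicate 2 kept NOC2L past the threshold, with 2.9% of all genes called. The smallest median, 0.07, was without that library too.

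Signs that turned were as follows. By library size alone, WDR74 was 0.46, RRP1B 0.49, WDR12 0.46, GNL3L 0.30, LAS1L 0.35, MDN1 0.10, RSL24D1 0.37, NIP7 0.53 and PA2G4 0.49. Without the abundant RNAs, WDR74 was 0.14, RRP1B 0.13, WDR12 0.097, GNL3L 0.038, LAS1L 0.033, NIP7 0.20 and PA2G4 0.11. With 1 CPM in 3 libraries NIP7 was 0.00039. On log2(TPM + 1), WDR74 was 0.46, RSL24D1 0.33, NIP7 0.32 and PA2G4 0.40, and on log2(TPM + 0.1) they were 0.52, 0.39, 0.56 and 0.49. In the 4 libraries, WDR74 was 0.0025, RBM28 -0.066, NIFK -0.11, DDX18 -0.17, DDX24 -0.040, GNL3L 0.024, TEX10 -0.063, NIP7 0.0057 and NSA2 -0.010. With 1 library left out, values crossed 0 for BRIX1 (-0.094 to 0.54), NIP7 (-0.13 to 0.079), RRP1 (-0.019 to 0.20), WDR12 (-0.27 to 0.040), LAS1L (-0.31 to 0.015), WDR74 (-0.30 to 0.048), DDX18 (-0.24 to 0.30), RPF1 (-0.078 to 0.42), NIFK (-0.067 to 0.23), RRS1 (-0.016 to 0.27), TEX10 (-0.050 to 0.21) and NSA2 (-0.058 to 0.49). The cause was not tested.

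The replicate numbers showed no clear pairing of the libraries, though so few correlations cannot decide whether they were paired. Deviations of same-numbered libraries correlated at -0.29, -0.04 and 0.22 across genes, and not every library correlated best with its own number. The replicate block gave 153 higher and 143 lower genes and a factor median of 0.16, and it changed no call among the 40. Factors under 2 CPM rest on as few as 52 counts, which limits what could be seen for them.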

Other observations

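The share of the 40 factors among counts left after removing 7SL, 7SK, RPPH1 and RMRP RNA was 0.139%, 0.148% and 0.160% in MUT replicates 1, 2 and 3, against 0.117%, 0.124% and 0.121% in WT. Every MUT library lay above every WT library on this scale, on which the median of all genes also lay higher in MUT, at 0.21 on the log2 scale. The spread within a group was wider for the factors in MUT than in WT. The MUT group includes MUT replicate 2, in which the median factor lay 0.26 higher on the log2 scale than in the other MUT libraries. The median SD of log2 CPM over 3 libraries was 0.22 in MUT and 0.16 in WT for the factors, and 0.19 in both groups for all tested genes.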
